A study of Mus musculus with 11 samples.

Results

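*Itga2b*, *Itgb3*, *Gp1ba*, *Gp1bb*, *Gp9*, *Gp6*, *Ppbp*, *Treml1*, *Clec1b* and *Tubb1* are 10 genes by which megakaryocytes and platelets are recognised. They were taken by symbol from the 55487 genes counted in each heart. RNA-seq was done on whole hearts of untreated E14.5 mouse embryos of the B6;129P2-Pde2A<tm1Dgen> strain, 5 homozygous *Pde2A*-/- (KO) and 6 *Pde2A*+/+ (WT), 1 library per heart, named here by genotype and the heart's own mark (KO A, WT 7). Both genotypes came from matings of *Pde2A*+/- mice, the *Pde2A* allele is disrupted in all cells, and per the study's methods embryos of both sexes were used. The question asked of the genes was whether the rise of erythroid genes in the KO hearts extended to the megakaryocyte, the sister lineage of the red cell.

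Megakaryocytes arise with red cell precursors from a shared progenitor, under GATA1 and its partners, and in the fetus they form mainly in the liver. They release platelets, which carry surface receptors for vessel wall proteins and clotting factors, and alpha granules filled with chemokines and adhesive proteins. A heart sampled whole holds the platelets and any megakaryocytes of the blood in its chambers and vessels. In such tissue, fewer cells of a type and less RNA per cell cannot be told apart.

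The hearts had 35865537 to 42835382 reads counted on genes in the sense orientation. The targeted gene could not be used to check the labels, because *Pde2a* had 7 counts in all 11 hearts together. Whether reads of *Pde2a* were lost to overlapping genes was not examined, so no level of it is read from these counts. One library stood apart: in WT 7 the 8 lymphocyte markers summed to 47.7 CPM (counts scaled to the library total, as edgeR's normalised CPM), against 0.249 to 0.504 CPM in the other 10 hearts. In the fit across all genes, 2160 of 24177 tested genes were higher in KO (8.93%) and 1372 were lower (5.67%) at an adjusted p under 0.05.

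The sequences just upstream of 5 of the genes are shown because the erythroid and megakaryocyte lineages share GATA factors, while ETS factors are prominent in megakaryocytes. Each is the 250 bases before the RefSeq start of the gene on GRCm38.p6, 5′ to 3′ on the gene's strand. Capitals mark the words searched on both strands. The GATA words were AGATAA, its variant AGATAG, then TGATAA, with its variant TGATAG, and the ETS words were AGGAAG, then the related CGGAAG, with AGGAAA as the last of them. *Ppbp* (chr5:90768268-90768517, plus strand) and *Clec1b* (chr6:129397047-129397296, plus) are the promoters of genes that rose in KO, and *Gp1ba* (chr11:70638872-70639121, plus) held the most GATA words of the members. *Itga2b* (chr11:102469884-102470133, minus, reaching into the gene as GENCODE draws it) and *Tubb1* (chr2:174450345-174450594, plus) belong to the genes that varied most closely together across hearts.
Ppbp: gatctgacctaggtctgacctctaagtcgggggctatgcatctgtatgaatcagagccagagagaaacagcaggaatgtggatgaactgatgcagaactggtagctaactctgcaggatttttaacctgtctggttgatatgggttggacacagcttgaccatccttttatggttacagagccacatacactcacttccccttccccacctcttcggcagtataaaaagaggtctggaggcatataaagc
Clec1b: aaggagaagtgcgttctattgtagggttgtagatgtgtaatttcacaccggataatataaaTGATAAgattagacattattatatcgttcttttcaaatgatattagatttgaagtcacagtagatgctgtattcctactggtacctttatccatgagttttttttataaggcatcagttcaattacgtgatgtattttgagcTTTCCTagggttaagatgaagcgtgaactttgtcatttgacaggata
Gp1ba: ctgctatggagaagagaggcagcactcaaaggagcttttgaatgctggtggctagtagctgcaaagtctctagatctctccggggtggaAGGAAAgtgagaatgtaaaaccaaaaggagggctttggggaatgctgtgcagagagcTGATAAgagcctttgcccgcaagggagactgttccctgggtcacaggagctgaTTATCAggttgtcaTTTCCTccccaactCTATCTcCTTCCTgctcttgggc
Itga2b: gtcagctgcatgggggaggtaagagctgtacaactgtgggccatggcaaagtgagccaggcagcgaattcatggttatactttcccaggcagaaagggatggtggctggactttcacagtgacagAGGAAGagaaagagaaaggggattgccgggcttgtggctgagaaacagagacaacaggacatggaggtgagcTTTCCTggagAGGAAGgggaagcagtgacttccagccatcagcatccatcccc
Tubb1: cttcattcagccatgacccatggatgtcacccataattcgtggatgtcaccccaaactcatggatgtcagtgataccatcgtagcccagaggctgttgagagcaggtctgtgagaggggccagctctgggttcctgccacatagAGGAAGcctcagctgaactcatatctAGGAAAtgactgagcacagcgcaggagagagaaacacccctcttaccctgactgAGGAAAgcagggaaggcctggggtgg
The *Ppbp* window held no word of either kind. The *Gp1ba* window held 3 GATA and 3 ETS words, the *Clec1b* window 1 of each, and the *Itga2b* and *Tubb1* windows 3 ETS words each and no GATA word. Of the 9 members with a RefSeq promoter (all but *Itgb3*), 4 held a GATA word and 8 an ETS word, against 26.5% and 54.4% of 32851 mouse promoters of the same length. These are matches of letters, and binding was not measured.

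In the KO hearts *Ppbp*, *Clec1b* and *Itgb3* rose, 6 other members did not pass the test, and none fell. *Gp1bb*, most of whose exon bases are shared with other genes, had too few counts to test. The 3 of 9 tested members called higher stand beside 8.93% of all tested genes, and the 1 called at 2-fold or more (*Ppbp*) beside 2.21%. The fitted log2 fold change was above 0 in 9 of the 9 tested members, a sign shared by 47.0% of all tested genes, and its median was 0.48 against −0.02 over all genes. The summed level of the members was 51.7 to 74.3 CPM in KO (median 61.4) and 37.3 to 51.4 CPM in WT (median 44.8). These ranges did not overlap, although KO 14 at 51.7 CPM lay next to WT H at 51.4 CPM. Most of each sum came from *Itgb3* (mean 28.6 CPM in KO, 22.8 in WT) and *Itga2b* (14.7 and 11.4). *Ppbp* was the only tested member whose KO hearts all lay above all WT hearts. Leaving out WT 7, the library with lymphocyte transcripts, left 3 members called higher.

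**Figure D1:**
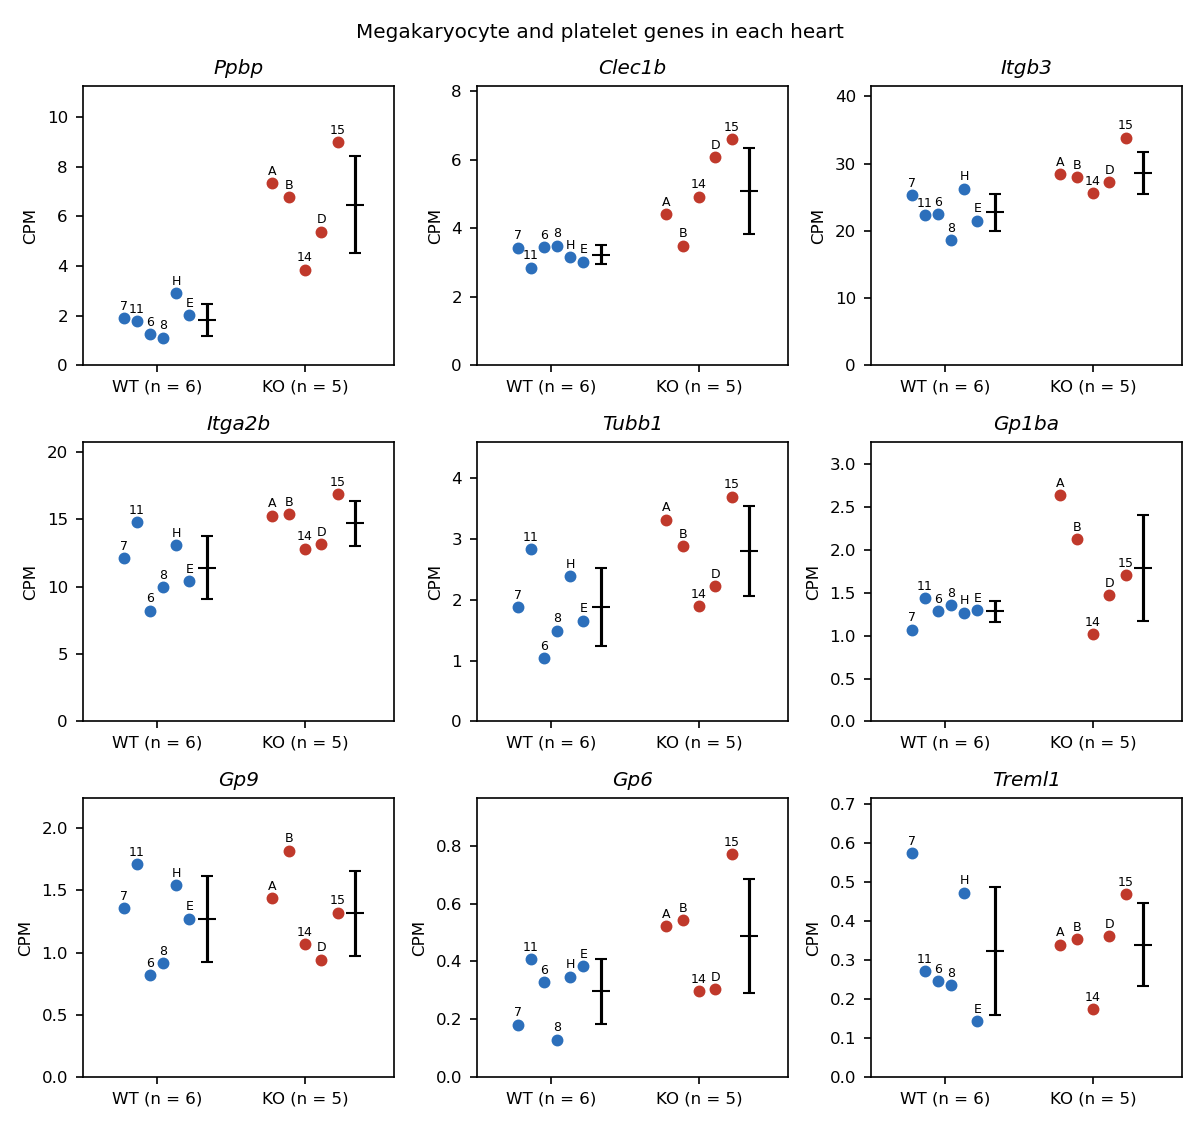
Level of each tested member in each heart, in CPM on a linear axis from 0, with WT hearts in blue and KO hearts in red, each point marked with its heart. Bars give the mean and SD over 6 WT or 5 KO hearts; *Ppbp* is the gene whose KO hearts all lie above all WT hearts, and *Gp9* and *Treml1* cover much the same range in both genotypes.

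*Ppbp* encodes pro-platelet basic protein, an alpha granule chemokine precursor that is made by megakaryocytes and stored in platelets (chr5:90768518-90770063, plus strand of GRCm38). Its level in KO was 7.33 CPM in KO A, 6.77 in KO B, 3.86 in KO 14, 5.38 in KO D and 8.98 in KO 15. In WT it was 1.90 CPM in WT 7, 1.79 in WT 11, 1.26 in WT 6, 1.12 in WT 8, 2.91 in WT H and 2.02 in WT E. Every KO heart was above every WT heart, which was so for 5.38% of all tested genes. The mean was 6.47 ± 1.95 CPM in KO (SD, n = 5) and 1.83 ± 0.637 CPM in WT (SD, n = 6), a 3.51-fold difference. The log2 fold change was 1.81 (SE 0.25, 95% interval 1.27 to 2.35, adjusted p = 5.37e-04 by edgeR's quasi-likelihood test). It stayed between 1.67 and 1.99 and passed the test whichever of the 11 hearts was dropped from the fit.

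*Ppbp* lies in a cluster of CXC chemokine genes, and its nearest neighbours were examined after its own value had been seen. Genes of the cluster farther away were not examined. *Pf4*, platelet factor 4, another alpha granule chemokine, starts 2372 bases downstream on the same strand and was 9.67 ± 1.47 CPM in KO and 4.09 ± 0.977 CPM in WT. Its log2 fold change was 1.24 (SE 0.16, adjusted p = 3.26e-04, edgeR), and no KO heart overlapped a WT heart. Of 14 macrophage markers 12 rose as well, beside 8.93% of all tested genes, and the part of macrophages in the *Pf4* result was not tested. On the other side of *Ppbp*, *Cxcl5*, a neutrophil-attracting chemokine, had 30 counts in all, 3 to 9 per KO heart and 0 to 2 per WT heart, and was higher in KO (log2 fold change 2.76, adjusted p = 0.0131, edgeR). *Cxcl15* had 19 counts and did not pass, and *Cxcl3* had 4 and was not tested.

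*Clec1b* encodes CLEC-2, the platelet receptor for podoplanin that signals through Syk and is needed to keep blood and lymph vessels apart (chr6:129397297-129409335, plus strand). Its level in KO was 4.41 CPM in KO A, 3.49 in KO B, 4.93 in KO 14, 6.08 in KO D and 6.61 in KO 15. In WT it was 3.44 CPM in WT 7, 2.85 in WT 11, 3.45 in WT 6, 3.50 in WT 8, 3.16 in WT H and 3.03 in WT E. The WT hearts lay within a narrow band, 4 of 5 KO hearts were above all of them, and KO B lay inside the band. The mean was 5.10 ± 1.26 CPM in KO and 3.24 ± 0.267 CPM in WT, with a log2 fold change of 0.65 (SE 0.15, 95% interval 0.33 to 0.98, adjusted p = 0.0147, edgeR), and it passed with any single heart left out.

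The end of *Clec1b* shares 184 exon bases, 3.61% of its exon length, with *Clec9a* on the same strand, so reads there count for neither gene. *Clec9a*, a receptor of dendritic cells, was 0.580 ± 0.291 CPM in KO and 0.257 ± 0.0673 CPM in WT. It was called higher in KO (log2 fold change 1.17, adjusted p = 0.0276, edgeR), with 170 counts in all. In mouse, *Clec1b* is also found on some myeloid cells. The 14 macrophage markers summed to 282 to 385 CPM in KO and 137 to 223 CPM in WT, and 12 of them rose and none fell. The part of these cells in the *Clec1b* result was not tested. The ligand gene *Pdpn* (podoplanin) was 7.89 ± 1.18 CPM in KO and 6.88 ± 1.95 CPM in WT and did not pass (adjusted p = 0.505, edgeR).

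*Itgb3* and *Itga2b* encode the 2 chains of the fibrinogen receptor, integrin αIIbβ3, through which platelets aggregate. The β3 chain also pairs with αv on endothelial and other cells, whereas αIIb (CD41) marks megakaryocytes, platelets and early blood progenitors. *Itgb3* (chr11:104608000-104670476, plus strand) was 28.4 CPM in KO A, 28.0 in KO B, 25.6 in KO 14, 27.3 in KO D and 33.9 in KO 15. In WT it was 25.3 CPM in WT 7, 22.3 in WT 11, 22.5 in WT 6, 18.6 in WT 8, 26.3 in WT H and 21.5 in WT E. 4 of 5 KO hearts were above all WT hearts, and KO 14 lay between WT 7 and WT H. The log2 fold change was 0.33 (SE 0.09, 95% interval 0.13 to 0.53, adjusted p = 0.0305, edgeR), a 1.26-fold difference of means of 28.6 ± 3.11 and 22.8 ± 2.74 CPM. The call was lost without KO D (adjusted p = 0.0545), KO 15 (0.0727), WT 11 (0.0504), WT 6 (0.0574) or WT E (0.0578), with the fold change between 0.27 and 0.38 over all 11 such edgeR fits.

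*Itga2b* (chr11:102453297-102470122, minus strand) showed a fold change of similar size that did not pass. It was 15.3 CPM in KO A, 15.4 in KO B, 12.8 in KO 14, 13.2 in KO D and 16.9 in KO 15. In WT it was 12.1 CPM in WT 7, 14.8 in WT 11, 8.22 in WT 6, 9.95 in WT 8, 13.1 in WT H and 10.4 in WT E. The groups overlapped through WT 11, WT H, KO 14 and KO D. The log2 fold change was 0.36 (SE 0.13, 95% interval 0.08 to 0.65, adjusted p = 0.0827, edgeR). It passed with DESeq2 (adjusted p = 0.0358) and without WT 11 (adjusted p = 0.0344, edgeR).

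*Gp1ba*, *Gp1bb*, *Gp9* and, outside the 10 genes, *Gp5* encode the GPIb-IX-V complex, by which platelets catch von Willebrand factor under flow. *Gp1ba* carries the binding site for von Willebrand factor (chr11:70639122-70642036, plus strand). It was 2.64 CPM in KO A, 2.12 in KO B, 1.02 in KO 14, 1.47 in KO D and 1.71 in KO 15, and 1.07 to 1.44 CPM in WT (median 1.29). 4 KO hearts were above all WT hearts and KO 14 was below all of them. The log2 fold change was 0.48 (SE 0.21, 95% interval 0.03 to 0.93, adjusted p = 0.142, edgeR). Its locus had 500 counts on the opposite strand beside 645 on its own. With both strands counted the log2 fold change was 0.12 (adjusted p = 0.751, edgeR).

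*Gp9*, the small subunit that the complex needs to reach the surface (chr6:87778072-87779768, plus strand), was much the same in both genotypes. It was 1.44 CPM in KO A, 1.82 in KO B, 1.07 in KO 14, 0.944 in KO D and 1.32 in KO 15, and 0.822 to 1.71 CPM in WT (median 1.31). The log2 fold change was 0.06 (SE 0.23, adjusted p = 0.901, edgeR), with a 95% interval from −0.43 to 0.54 that allows a change of moderate size either way. *Gp5*, the outer subunit, was 1.28 ± 0.108 CPM in KO and 0.633 ± 0.233 CPM in WT, with no overlap (log2 fold change 1.01, SE 0.24, adjusted p = 0.0170, edgeR). The subunits of the complex thus had different values in the same hearts, and the difference between them was not tested. Per count of *Gp9* in the same heart, *Gp5* had 0.649 to 1.29 counts in KO and 0.333 to 0.686 in WT. *Gp1ba* had 0.953 to 1.84 in KO and 0.788 to 1.57 in WT, and both of these ratios overlapped between genotypes.

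*Gp1bb* (chr16:18620317-18622403, minus strand) had 9 counts in all hearts, at most 5 in any 1, and did not reach the 10 counts needed for the test. Of its 2087 exon bases, 1938 (92.9%) also belong to other genes on the same strand, *Sept5* covering 91.1% and *Gm49601* 41.5%. A read on more than 1 gene is counted for none, so these counts do not measure *Gp1bb* and no level can be read from them. *Sept5*, a septin, had 663 counts and did not pass (log2 fold change −0.19, adjusted p = 0.504, edgeR).

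*Gp6* encodes the collagen receptor glycoprotein VI (chr7:4363965-4397744, minus strand). With 5 to 28 counts per heart it was 0.299 to 0.771 CPM in KO (median 0.522) and 0.131 to 0.408 CPM in WT (median 0.338). 3 KO hearts, A, B and 15, were above all WT hearts, and KO 14 and KO D lay among them. The log2 fold change was 0.71 (SE 0.33, 95% interval −0.01 to 1.43, adjusted p = 0.169, edgeR). Its signalling partner, the Fc receptor γ chain *Fcer1g*, which many myeloid cells share, was 5.85 to 7.58 CPM in KO and 3.07 to 5.03 CPM in WT (log2 fold change 0.77, SE 0.13, adjusted p = 0.00179, edgeR).

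*Treml1* encodes TLT-1, a receptor held in the alpha granule membrane until platelets are activated (chr17:48359916-48367176, plus strand). It had 6 to 22 counts per heart, where counting error alone gives a coefficient of variation of 28.3% in WT, and the WT hearts varied by 50.4%. It was 0.174 to 0.468 CPM in KO (median 0.354) and 0.144 to 0.574 CPM in WT (median 0.259), and the highest heart of all was WT 7. The log2 fold change was 0.06 (SE 0.35, 95% interval −0.70 to 0.83, adjusted p = 0.929, edgeR), and 0.30 (adjusted p = 0.612, edgeR) without WT 7.

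*Tubb1* encodes β1-tubulin, the megakaryocyte tubulin of the ring of microtubules that keeps platelets discoid (chr2:174450695-174457882, plus strand). It was 3.31 CPM in KO A, 2.88 in KO B, 1.89 in KO 14, 2.22 in KO D and 3.69 in KO 15. In WT it was 1.88 CPM in WT 7, 2.83 in WT 11, 1.04 in WT 6, 1.49 in WT 8, 2.39 in WT H and 1.66 in WT E. KO A, KO B and KO 15 were above all WT hearts, and KO 14 and KO D lay among them. The log2 fold change was 0.57 (SE 0.24, 95% interval 0.05 to 1.10, adjusted p = 0.132, edgeR).

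The members differed widely in level. Per kilobase of exon, the WT level was 3.86 ± 0.465 CPM for *Itgb3*, 2.10 ± 0.434 for *Itga2b*, 1.69 ± 0.588 for *Ppbp*, 1.44 ± 0.394 for *Gp9* and 1.34 ± 0.456 for *Tubb1*. *Itgb3* lay above the other members in every WT heart, and the ranges of the next 4 overlapped. Below them came *Clec1b* at 0.635 ± 0.0523 CPM per kilobase, *Gp1ba* at 0.473 ± 0.0455, *Treml1* at 0.231 ± 0.117 and *Gp6* at 0.0503 ± 0.0192, of which *Gp1ba* and *Treml1* overlapped. In KO, *Ppbp* reached 5.97 ± 1.80 CPM per kilobase, and *Itgb3* 4.85 ± 0.527. Exon length here joins all annotated exons of a gene, 5103 bases for *Clec1b* and 1083 for *Ppbp*, and the order depends on it. In plain CPM the WT mean of *Clec1b* (3.24) was above those of *Tubb1* (1.88), *Ppbp* (1.83) and *Gp9* (1.27).

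**Figure D2:**
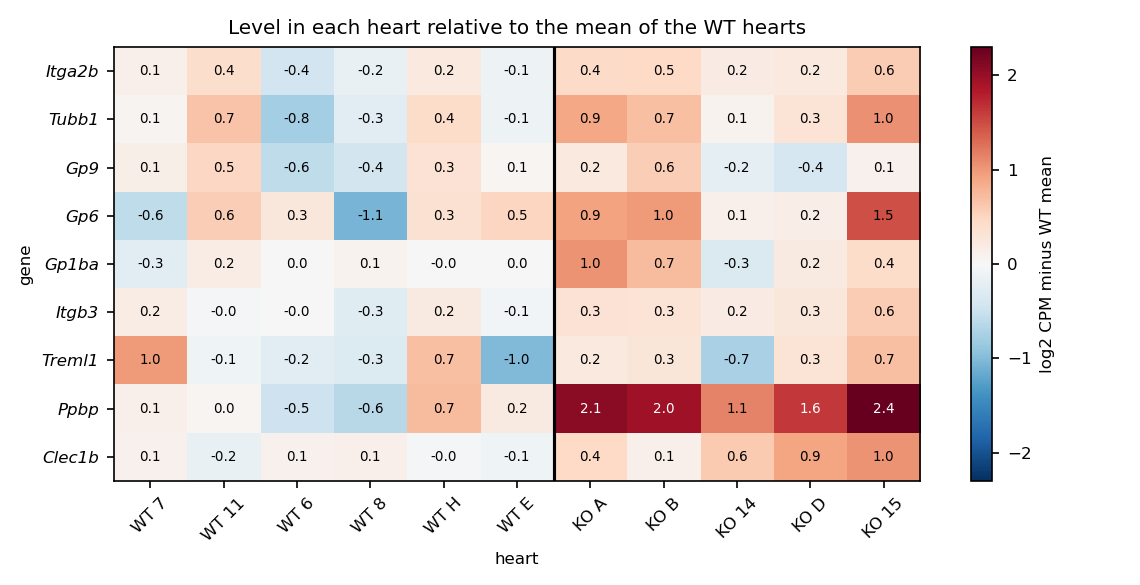
Level of the 9 tested members (rows) in each of the 11 hearts (columns), as log2 CPM minus the mean log2 CPM of the 6 WT hearts, red where higher and blue where lower. *Ppbp* is higher in all KO hearts, *Itga2b*, *Tubb1* and *Gp9* go up and down together among hearts of 1 genotype (WT 11 high, WT 6 low), and *Clec1b* does not follow them.

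Hearts of 1 genotype differed from each other in a way that many members shared. After each genotype's mean was subtracted, the Pearson r of log2 CPM over the 11 hearts was 0.97 for *Itga2b* and *Tubb1*, 0.86 for *Itga2b* and *Gp9*, 0.84 for *Gp9* and *Tubb1* and 0.82 for *Itgb3* and *Ppbp*. Of the 36 pairs of tested members, the 28 without *Clec1b* all had a positive r (median 0.55). The 8 pairs with *Clec1b* had a median r of −0.20, and the lowest was −0.63 with *Gp9*. These values are descriptions over hearts that share depth and tissue composition, with no test.

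The members were also compared with each other inside each heart, as the count of 1 gene per count of another. *Ppbp* had 2.04 to 2.43 counts per count of *Tubb1* in KO and 0.635 to 1.22 in WT. Per count of *Gp9* it had 3.60 to 6.79 in KO and 1.05 to 1.89 in WT, and per count of *Itga2b* 0.300 to 0.533 in KO and 0.113 to 0.222 in WT. None of these ranges overlapped, so *Ppbp* was higher relative to these members as well as to the library. Relative to its neighbour *Pf4* the ranges overlapped, at 0.393 to 0.946 in KO and 0.257 to 0.775 in WT. *Tubb1* per *Gp9* (1.58 to 2.79 in KO, 1.27 to 1.65 in WT) and *Itga2b* per *Itgb3* (0.483 to 0.551 in KO, 0.365 to 0.662 in WT) overlapped too. So did *Clec1b* per *Gp9* (1.92 to 6.44 in KO, 1.67 to 4.2 in WT). *Ppbp* was set against the others after its values were seen, so no test is given.

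**Figure D3:**
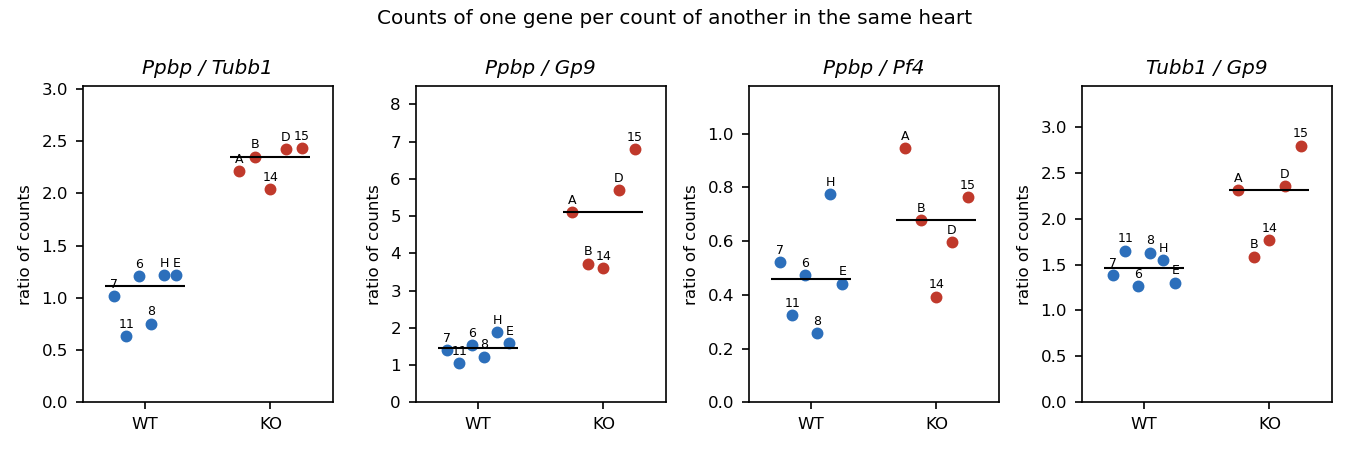
Ratio of the counts of 2 genes in the same heart, on linear axes from 0, for WT (blue) and KO (red) hearts, each marked with its name and with the median as a line. *Ppbp* per *Tubb1* is 2.04 to 2.43 in KO and 0.635 to 1.22 in WT, whereas *Ppbp* per *Pf4* overlaps between genotypes.

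Among 22 further megakaryocyte and platelet genes, 9 rose and none fell, 4 of the 9 by 2-fold or more, with a median log2 fold change of 0.41 over the 22. Of all tested genes, 8.93% were higher, 2.21% higher by 2-fold or more and 5.67% lower. These shares stand beside the counts of this list and of the lists below. Without WT 7, 10 of the 22 were called higher. The largest was 2.12 (SE 0.29, adjusted p = 5.61e-04, edgeR) for *F2rl2*, the thrombin receptor PAR3, at 0.993 ± 0.264 CPM in KO and 0.225 ± 0.104 CPM in WT. *Plek*, pleckstrin, a protein kinase C substrate that leukocytes share, had 1.11 at 18.5 ± 1.77 CPM in KO and 8.53 ± 1.38 CPM in WT. *Selp* (P-selectin) had 0.88 and lost its call without KO 14 (adjusted p = 0.0536, edgeR). *Vwf* (von Willebrand factor) had 0.80 at 135 ± 29.9 CPM in KO and 77.4 ± 13.4 CPM in WT, and endothelium makes both of these. The genes that did not pass included *P2ry12*, the ADP receptor that antiplatelet drugs block, with a log2 fold change of 0.28 (adjusted p = 0.286, edgeR). *F2rl3*, the thrombin receptor PAR4, had −0.73 (adjusted p = 0.0502, edgeR), and passed as lower in 5 of the 7 fits with other settings and in 3 of the 11 with 1 heart left out.

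Of 12 genes that carry platelet receptor signals, 4 rose and 1 fell. With all hearts, *Fermt3* (kindlin-3, which activates integrins) had a log2 fold change of 1.39, *Btk* 1.22 and *Fcer1g* 0.77. *Apbb1ip*, the partner of talin and Rap1, had 0.71. Its call was lost in 8 of 11 fits with 1 heart left out (adjusted p up to 0.0845, edgeR), but was kept without WT 7. These 4 are also genes of leukocytes, and the macrophage values given above apply to them too. *Rasgrp2*, the exchange factor that switches on Rap1 in platelets, was lower, at 4.26 ± 0.334 CPM in KO and 5.61 ± 0.602 CPM in WT (log2 fold change −0.40, adjusted p = 0.0218, edgeR), with no overlap, and lost its call without KO 14 (adjusted p = 0.0623). Of 9 ligand genes only *Fn1* (fibronectin) passed, with 0.26 (adjusted p = 0.0293, edgeR), a call lost in 6 of 11 fits with 1 heart left out (adjusted p up to 0.0828). The fibrinogen genes *Fga*, *Fgb* and *Fgg*, products of hepatocytes, had 117 to 190 counts each and did not pass.

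The transcription factors that the erythroid and megakaryocyte lineages use differed among themselves. *Gfi1b*, *Gata1*, *Nfe2* and *Tal1* rose by log2 fold changes of 4.35 (SE 0.37), 3.45 (SE 0.34), 2.52 (SE 0.29) and 1.41 (SE 0.09). *Lmo2*, *Mafg* and *Zfpm1* (FOG1, the GATA1 cofactor) rose by 0.56, 0.52 and 0.47. *Gata2*, *Etv6*, *Runx1*, *Myb* and *Fli1*, the last an ETS factor that favours megakaryocytes over red cells, did not pass. *Fli1* was 31.6 ± 5.20 CPM in KO and 30.0 ± 1.98 CPM in WT, with a log2 fold change of 0.08 (95% interval −0.14 to 0.29, adjusted p = 0.660, edgeR), and endothelium makes it as well. In all, 7 of the 12 rose and none fell, beside 8.93% and 5.67% of all tested genes. Without WT 7, in which *Runx1* and *Myb* were far higher than in the other WT hearts, 9 rose.

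The erythroid genes moved much further than the members. Of 17 tested, 15 rose, all by 2-fold or more and with no overlap of hearts, and the median log2 fold change over the 17 was 2.80, against 0.48 over the 9 tested members. Of all tested genes, 2.21% rose by 2-fold or more, and 5.38% had every KO heart above every WT heart. *Car1* (carbonic anhydrase 1) had 5.89, *Hemgn* (hemogen) 4.94, *Rhag* (the Rh-associated glycoprotein) 4.40, *Klf1* (the master factor of the red cell programme) 4.10, *Ermap* 4.05 and *Epb42* (band 4.2 of the membrane skeleton) 2.96. *Ppbp* at 1.81 had the largest value of the members, and lay above *Trim10* (1.43) and *Sptb* (1.17), which were among the erythroid genes that rose. The 2 that did not pass were *Aqp1*, a water channel (0.33, adjusted p = 0.0678, edgeR), and *Alas2*, the haem enzyme of red cells, at 124 ± 25.7 CPM in KO and 189 ± 103 CPM in WT (−0.60, adjusted p = 0.221, edgeR). The difference between the lists was not tested.

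**Figure D4:**
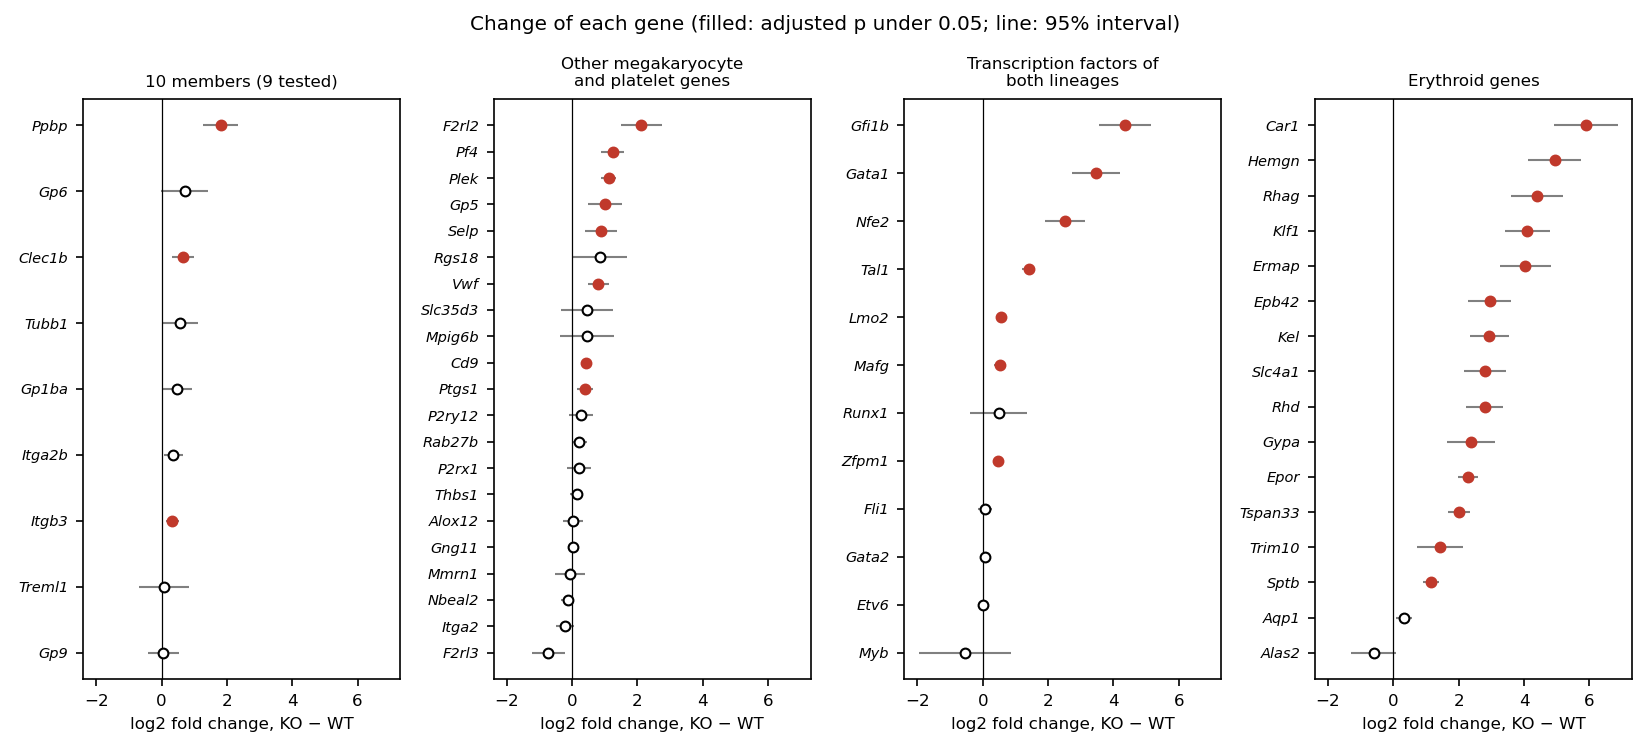
Log2 fold change, KO minus WT, of tested genes on a common axis, for the members, the other megakaryocyte and platelet genes, the transcription factors and the erythroid genes. Lines are 95% intervals, and filled points passed the test (edgeR, adjusted p under 0.05), as 3 of the 9 members did. The erythroid panel reaches 5.89 (*Car1*) and the members' panel 1.81 (*Ppbp*).

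Both the summed erythroid level and the summed level of the members placed every KO heart above every WT heart. The sum of the members follows mainly *Itgb3* and *Itga2b*, its most abundant genes. Within the KO hearts the orders of the 2 sums differed. There the summed erythroid level was lowest in KO A, at 857 CPM, and highest in KO B, at 1562 CPM. The summed level of the members was lowest in KO 14, at 51.7 CPM, and highest in KO 15, at 74.3 CPM, with KO A second at 63.7 CPM. KO 15 was second for erythroid genes, at 1364 CPM. Among WT hearts the orders of these 2 sums were close to each other. WT 6 was lowest for the erythroid sum at 303 CPM and second lowest for the members at 39.2 CPM. WT 11 was highest for the erythroid sum at 765 CPM and second highest for the members at 48.6 CPM. In WT the largest part of the erythroid sum was *Alas2* (mean 189 CPM), which did not pass. Single erythroid genes ordered the WT hearts differently. WT E was highest for *Hemgn* (3.05 CPM), *Ermap* (5.76), *Rhag* (2.16) and *Klf1* (1.70), and WT 11 for *Epb42* (6.09) and *Trim10* (24.5).

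Over the 11 hearts, the mean standardised level of the tested members was most like that of *Rp2* (Pearson r = 0.92) and *Zfp958* (0.90), of 14017 genes compared. Others among the 10 most alike, with r from 0.89 down to 0.87, were *Zfp800*, *Serpinb9*, *Pced1b*, *Rif1*, *Clk1*, *Zfp758* and *Rab2b*. With the genotype means subtracted, *Ikzf5* (0.90), *Gm45457*, *Bbs4*, *Rbm44*, *Rp2*, *Ift88*, *Drc3*, *Gm3854*, *Vps4b* and *Ube2r2* (0.84) came first. *Rp2* stood in both sets. Of the platelet genes outside the 10, *Pf4* had an r of 0.74 over the 11 hearts and 0.29 with the genotype means subtracted. The same values were 0.81 and 0.61 for *Plek*, and 0.49 and −0.22 for *Vwf*. The points share depth and composition, and no test is given.

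Other blood and tissue markers gave the setting, beside the 8.93% of all tested genes called higher and the 5.67% called lower. Where 1 gene of a list was called in a direction, no change of the list is read from it. Of 12 mast cell and granulocyte genes, the 7 granulocyte genes rose, *Elane* (neutrophil elastase) by 3.18, *S100a9* by 2.98 and *Ngp* by 2.87 on the log2 scale, while *Cpa3*, a mast cell protease, was lower (−1.73). Among 8 progenitor genes *Kit*, the stem cell factor receptor, rose by 0.65, and without WT 7, 4 of the 8 were called higher. The 8 endothelial genes, of which *Emcn* (0.50) and *Pecam1* (0.34, also on platelets) rose and *Cldn5* was lower (−0.79), summed to overlapping ranges in both genotypes, 1106 to 1209 CPM in KO and 935 to 1111 CPM in WT. Among 10 cardiomyocyte genes *Nppa* rose by 0.87 and *Ttn* was lower (−0.51), and of 9 hepatocyte genes *Trf*, which other cells make as well, rose by 0.73, a call lost without KO D (adjusted p = 0.0558, edgeR) or KO 15 (0.0510). The other hepatocyte genes did not pass, 7 of the 9 had a log2 fold change below 0, and the median over the 9 was −1.68. *Cnn1* was lower (−0.38) among 5 smooth muscle genes, a call lost in 7 of 11 fits with 1 heart left out (adjusted p up to 0.0985, edgeR). Of 7 tested lymphocyte genes 0 passed with edgeR, 4 were lower at an unadjusted p under 0.05, WT 7 holding most of their counts, and DESeq2 gave none of the 7 an adjusted p. The part of these cells in the results for the members was not tested.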

How the data were processed

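Per the study's methods and labels, total RNA of each heart was made into stranded mRNA libraries (NEBNext Ultra II), sequenced single-end on a NextSeq 500 and mapped to GRCm38 (mm10) with STAR, whose version is not given in the sources used here. The authors deposited STAR's raw counts per gene, unnormalized, for both strands together and for each strand. The sense column was used, which for this kit is the last. STAR counts no read that lies on more than 1 gene, and the lines for reads on no gene (19.6% to 22.4%) were left out. Gene symbols came from GENCODE M21 on the same build (55141 of 55487 IDs matched), and 1 listed gene, Ahsp, did not match.

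The 24177 genes whose counts reached 10 when all 11 hearts were added up were fitted with edgeR 4.0.16 in R 4.3.3 (TMM, quasi-likelihood test, genotype as the only term), and p-values were adjusted over all of them by Benjamini-Hochberg. The study's methods name DESeq2, which was run here (1.42.0) as an alternative. CPM are counts scaled to library totals corrected by TMM, SE is the fold change over the square root of F, and log2 values carry a prior count of 2. The biological coefficient of variation was 16.8%. On simulated data for this comparison, 156 of 200 genes raised or lowered 2-fold were found again, with 4 wrong calls, in a fit of 23672 genes. The 200 were drawn from genes with a mean of at least 10 counts per heart. Changes smaller than 2-fold, or in genes of lower counts, were not simulated. The text names all members, up to 6 genes that passed from each of the 3 nearest lists and up to 3 from the others (by fold change), direct partners of members, genes overlapping a member, the targeted gene and the 10 genes most like the members. *Apbb1ip*, *Rasgrp2*, *P2ry12*, *F2rl3*, *Zfpm1*, the transcription factors that did not pass, the fibrinogen genes, *Trim10*, *Sptb*, *Aqp1*, *Alas2* and the neighbours of *Ppbp* were added after their values were seen. The members and lists were chosen with earlier results of these data known, so no test over a list is given. Each library is 1 embryo's heart, and litter was not given, so p-values measure the spread between these hearts. Of the listed genes, 2 are not reported here by name, though the counts over the lists include them.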

Additional observations from a re-analysis of the deposited data

Results flagged for a closer look

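In 120 groups, 60 genes by genotype, the heart farthest from the others was compared with the spread of its group (Dixon's test at the 95% level), and 10 groups held a heart that stood apart. Chance gives about 1 group in 20. None of the 10 was a group of a member gene. Of the other megakaryocyte and platelet genes, *Selp* was 1.67 CPM in KO 14 against at most 0.966 CPM in the other KO hearts. *Rgs18* was 1.52 CPM in KO 15 against at most 1.07 CPM in the other KO hearts, and 1.59 CPM in WT 7 against at most 0.596 CPM in the other WT hearts. *Slc35d3* was 1.98 CPM in WT 7 against at most 0.705 CPM in the other WT hearts. *Thbs1* was 156.4 CPM in KO D against at most 130 CPM, and *Itga2* was 20.1 CPM in KO A against at most 15.5 CPM, in the other KO hearts. Of the transcription factors, *Runx1* was 7.82 CPM and *Myb* 22.9 CPM in WT 7, against at most 2.93 and 3.48 CPM in the other WT hearts. Of the erythroid genes, *Sptb* was 156.4 CPM in KO A against at least 229 CPM, and *Trim10* was 57.8 CPM in KO B against at most 36.1 CPM, in the other KO hearts. WT 7 accounts for 4 of the 10 and is the heart with the lymphocyte transcripts.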

How the results depend on the processing

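The count of members called higher was 3 under edgeR with DESeq2's size factors, filterByExpr, no filter on low counts, both strands counted, the globin genes left out or the naming style of the heart (letter or number) as a covariate. It was 4 with DESeq2, 1 at an adjusted p under 0.01, 1 with 2-fold added, and 2 to 3 with 1 heart left out. *Ppbp* and *Clec1b* passed in all of these fits at an adjusted p under 0.05. The fold change of *Gp9*, 0.06, turned to −0.0056 with the naming covariate and ran from −0.090 to 0.16 with 1 heart left out, and that of *Treml1*, also 0.06, ran from −0.092 to 0.30. None of these passed, and the cause was not tested. For all genes, 2160 higher and 1372 lower became 2791 and 2354 with DESeq2, and 1288 to 2887 and 414 to 2165 with 1 heart left out. No paired analysis was possible because the genotypes share no replicate number. Counting error alone gives a coefficient of variation of 23.1% to 29.5% for *Gp6* and *Treml1*, while the hearts of 1 genotype varied by 31.1% to 50.4%.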
